A study of Homo sapiens with 12 samples.

Results

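The mRNA levels and ribosome footprints of 10 genes whose products detect collided ribosomes or clear them were followed in HEK293T cells, an established line derived from human embryonic kidney. The genes were EDF1, GTPBP1, PELO, ABCE1, ASCC2, ASCC3, TRIP4, LTN1, NEMF and TCF25. They were taken by name, and their 10 rows came from tables of 27011 genes that list read counts from RNA sequencing (RNA-seq) and from ribosome profiling (Ribo-seq, the sequencing of mRNA fragments protected by ribosomes). The cells were wild-type (WT), 4EHP-null, or GIGYF1/2-null, and each genotype had 2 RNA-seq and 2 Ribo-seq libraries, described by the submitters as biological replicates. All were untreated and were harvested 24 h after plating on 15 cm dishes. The labels do not say whether each null line was a single clone, so a genotype cannot be told apart from a property of the line that carries it.

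Translating ribosomes that stall on an mRNA are run into by the ribosome behind, and the collided pair is the structure that cells recognise. EDF1 binds collided ribosomes and helps to bring in GIGYF2 and 4EHP, a cap-binding protein (gene EIF4E2) that keeps the initiation machinery off the mRNA. The ASC-1 complex (ASCC3, a helicase, with ASCC2, TRIP4 and ASCC1) pulls the leading collided ribosome apart, and PELO with ABCE1 splits ribosomes that have stopped with an empty or blocked site. Splitting leaves a large subunit still holding an unfinished protein, on which NEMF adds a tail of amino acids and recruits LTN1, the ubiquitin ligase that marks the protein for destruction, with TCF25 as a further part of that complex. GTPBP1 is a GTPase related to translation elongation factors and is linked to the resolution of stalled ribosomes.

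Promoter stretches are shown for LTN1, NEMF and TRIP4 because these were the members whose mRNA differed between 4EHP-null and WT. They are the last 150 bases before each gene's annotated start, from RefSeq on build GRCh38.p14, written 5′ to 3′ on the gene's own strand. The LTN1 stretch lies at chr21:28992878-28993027 (minus strand), that of NEMF at chr14:49852789-49852938 (minus strand) and that of TRIP4 at chr15:64387686-64387835 (plus strand). Capitals mark a CCAAT box (printed as its reverse complement, ATTGG) and an NRF1 site in NEMF, and GC boxes (GGGCGG) in TRIP4. No searched motif matched within the printed LTN1 stretch.
LTN1: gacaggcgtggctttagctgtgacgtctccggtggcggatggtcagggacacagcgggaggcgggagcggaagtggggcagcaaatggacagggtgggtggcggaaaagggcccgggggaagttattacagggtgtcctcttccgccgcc
NEMF: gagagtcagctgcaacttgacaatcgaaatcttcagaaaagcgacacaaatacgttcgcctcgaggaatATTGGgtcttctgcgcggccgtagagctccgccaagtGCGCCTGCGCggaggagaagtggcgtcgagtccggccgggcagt
TRIP4: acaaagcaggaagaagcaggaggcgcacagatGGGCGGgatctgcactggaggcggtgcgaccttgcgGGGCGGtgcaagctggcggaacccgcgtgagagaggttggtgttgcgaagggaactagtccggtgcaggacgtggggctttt

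Of the 10 genes, 9 had an entry in the promoter table (ASCC3 did not), and 5 motifs were searched on both strands over the 250 bases before each start. A CCAAT box (CCAAT) was present in EDF1, LTN1, NEMF, TRIP4 and GTPBP1, 5 of the 9, against 33.0% of 27305 promoters. A GC box (GGGCGG) was present in EDF1, TCF25, ASCC2, TRIP4 and GTPBP1, against 42.3% of promoters. The NRF1 site occurred in NEMF and TCF25 (5.53% of promoters), the cAMP response element TGACGTCA in ABCE1 (1.77%), and the ETS core CCGGAAG in none of the 9 (8.82%). The 3 genes whose mRNA was higher in 4EHP-null cells shared the CCAAT box, which EDF1 and GTPBP1 had as well. A match is a run of letters and is not evidence of binding.

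The RNA-seq libraries held 26143118 to 38175701 counted reads and the Ribo-seq libraries 6536493 to 10816080. Among members the counts ran from 401 to 11248 reads in RNA-seq and from 117 to 3816 in Ribo-seq. Levels are given in CPM, read counts brought to a common library size with TMM scaling, which also evens out library composition. EIF4E2 mRNA stood at 123 and 123 CPM in the WT libraries, 51.0 and 46.7 in the 4EHP-null libraries and 131 and 137 in the GIGYF1/2-null libraries. GIGYF1 mRNA stood at 41.2 and 40.8 CPM in the WT libraries, 38.9 and 39.3 in the 4EHP-null libraries and 22.4 and 26.0 in the GIGYF1/2-null libraries, and its Ribo-seq level was 8.69 and 6.72 CPM in WT and 1.70 and 2.74 CPM in GIGYF1/2-null. GIGYF2 mRNA was 81.2 and 66.1 CPM in WT and 96.7 and 81.8 CPM in the libraries labelled GIGYF1/2-null, so its RNA-seq counts show no loss. GIGYF2 Ribo-seq levels were 90.8 and 63.9 CPM in the WT libraries, 110.2 and 86.2 in the 4EHP-null libraries and 81.6 and 51.7 in the GIGYF1/2-null libraries. The GIGYF1/2-null footprints of GIGYF2 overlapped WT and lay below 4EHP-null, with a log2 fold change between the knockouts of -0.56 ± 0.22 (adjusted p = 0.137, edgeR) and of -0.96 ± 0.28 in the ratio of footprints to mRNA (0.340), neither called. Of 7 markers chosen for HEK293T cells, 6 to 7 exceeded 1 CPM in each library, with a summed RNA-seq level of 708 to 1153 CPM. VIM made up the largest part of that sum, at 449 to 795 CPM, and LHX1 was under 1 CPM in some libraries. The summed marker levels of hepatocytes, leukocytes, fibroblasts and endothelial cells were at most 0.475, 3.60, 12.4 and 0.571 CPM in RNA-seq. In Ribo-seq they were at most 0.606, 11.1, 11.8 and 7.43 CPM, beside 1262 to 2340 CPM for the HEK293T markers.

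The members spanned a wide range of mRNA abundance. Genes were compared in RPKM, the CPM divided by gene length in kilobases, as mean ± SD over 2 libraries. In WT, EDF1 was the most abundant member at 147 ± 9.40 RPKM, followed by ABCE1 at 75.7 ± 5.03, ASCC2 at 28.7 ± 0.673, GTPBP1 at 23.3 ± 2.17, TCF25 at 22.5 ± 1.47 and PELO at 13.6 ± 0.738. TRIP4 (7.0 ± 0.872 RPKM), ASCC3 (6.48 ± 0.787), NEMF (5.55 ± 0.224) and LTN1 (5.24 ± 0.469) were the least abundant. The library ranges of GTPBP1 and TCF25 overlapped, as did those of TRIP4 and ASCC3 and of NEMF and LTN1. The order was the same in 4EHP-null cells, and in GIGYF1/2-null cells ASCC3 stood above TRIP4 with overlapping ranges. The mRNAs of the ligase LTN1 and the helicase ASCC3 were thus far scarcer than those of the collision sensor EDF1 or the recycling ATPase ABCE1.

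Ribo-seq gave a flatter order. In WT, EDF1 at 94.0 ± 16.2 RPKM and ABCE1 at 78.3 ± 10.1 again led, with overlapping ranges, and the other 8 genes lay between 6.92 ± 0.722 (LTN1) and 17.4 ± 0.103 (ASCC2). NEMF moved from the ninth place in mRNA to the sixth in footprints, at 14.3 ± 0.883 RPKM. The gene length used covers whole exons, untranslated parts included, so genes with long untranslated regions read low in Ribo-seq RPKM.

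In 4EHP-null cells the mRNAs of LTN1 and NEMF, which act together on the large subunit, and of TRIP4, a subunit of the ASC-1 complex, rose against WT. No member was called lower, and the other 7 did not pass the test. The count of 3 of 10 called (edgeR's quasi-likelihood test, Benjamini-Hochberg adjusted p under 0.05 over 15637 genes) stands beside 13.1% of all tested genes, and the 3 called higher beside 6.47% (6.63% were lower). At an unadjusted p under 0.05, 5 members differed, where 27.3% of all genes did. The median log2 fold change of the 10 was 0.17, against -0.003 over all genes tested. Non-overlapping libraries were found higher for 6 members and lower for 1, where 28.3% and 29.1% of all tested genes were so placed. In bulk RNA, fewer cells of a kind and less RNA per cell cannot be told apart.

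**Figure D1:**
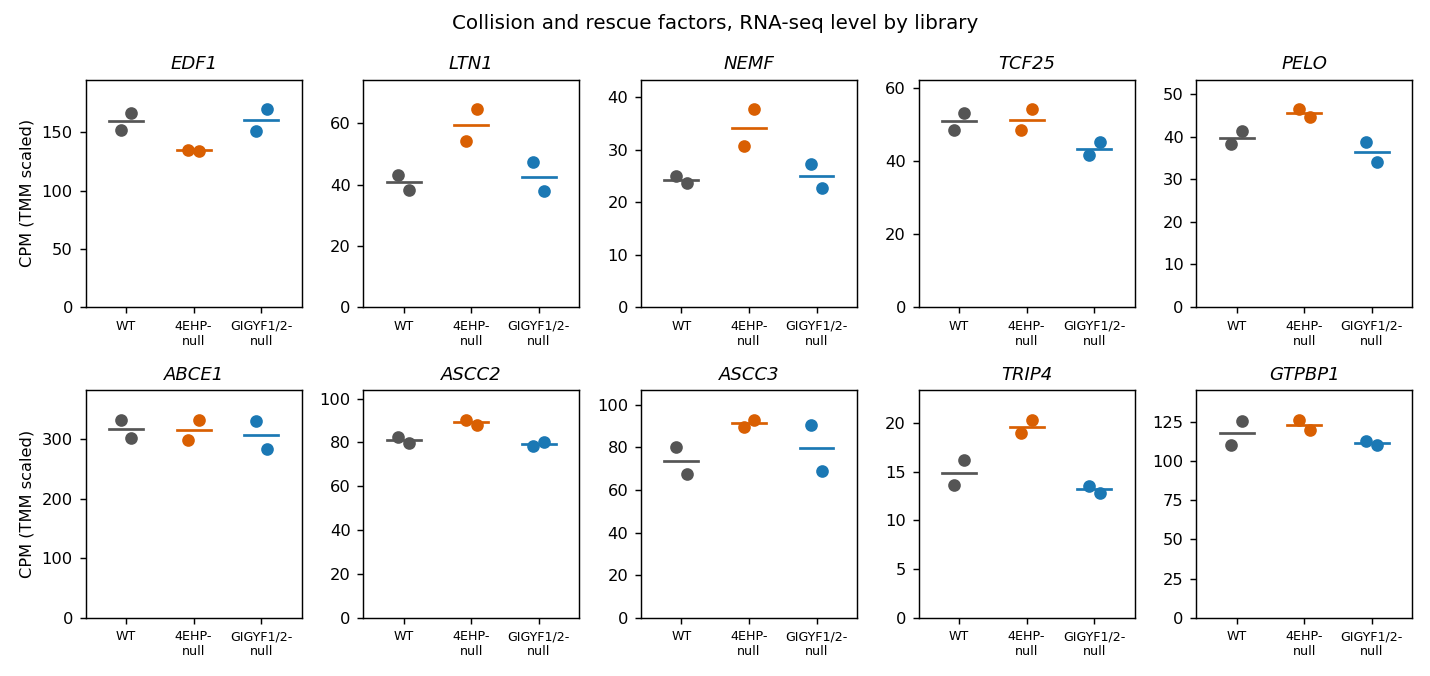
RNA-seq level of each of the 10 genes in CPM (vertical axis, from 0 and scaled separately for each gene) in the 2 libraries of each genotype (points) with their mean (line). Both 4EHP-null points lie above both WT points for LTN1, NEMF, PELO, ASCC2, ASCC3 and TRIP4, and below them for EDF1.

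In GIGYF1/2-null cells none of these changes was called. No member was called in RNA-seq against WT by edgeR's quasi-likelihood test or by DESeq2, where 11.9% of all genes were called, and 1 member (TCF25) had an unadjusted p under 0.05, where 25.3% of all genes did. The median log2 fold change of the 10 was -0.04, against 0.01 over all genes tested. The difference between the knockouts was tested directly, and 5 members were called, 1 higher and 4 lower in GIGYF1/2-null than in 4EHP-null, against 24.4% of all genes (11.4% higher and 13.0% lower). At an unadjusted p under 0.05, 7 members differed there, against 37.0% of all genes. The 3 comparisons share libraries and are not independent of each other.

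LTN1, the ubiquitin ligase of stalled large subunits, had RNA-seq levels of 43.2 and 38.1 CPM in the WT libraries, 54.2 and 64.5 in the 4EHP-null libraries and 47.3 and 37.8 in the GIGYF1/2-null libraries. Both 4EHP-null libraries were above all 4 others, and the WT and GIGYF1/2-null libraries overlapped. Its log2 fold change in 4EHP-null against WT was 0.55 ± 0.13 (SE; adjusted p = 0.0134, edgeR), and it was 0.07 ± 0.13 in GIGYF1/2-null against WT (adjusted p = 0.802, edgeR). Between the knockouts LTN1 was lower in GIGYF1/2-null, with a log2 fold change of -0.48 ± 0.13 (adjusted p = 0.0149, edgeR). The change against WT was not called without WT replicate 1 (adjusted p = 0.0528), WT replicate 2 (0.148) or 4EHP-null replicate 2 (0.124), and the one between knockouts not without 4EHP-null replicate 2 (0.125) or GIGYF1/2-null replicate 2 (0.138).

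Footprints on LTN1 rose as well. Ribo-seq gave 49.7 and 57.6 CPM in the WT libraries, 91.8 and 93.2 in the 4EHP-null libraries and 52.0 and 48.6 in the GIGYF1/2-null libraries. The 4EHP-null libraries were far above the other 4, which overlapped across genotypes. In 4EHP-null against WT the log2 fold change was 0.78 ± 0.14 (adjusted p = 0.0112, edgeR), and LTN1 was the 1 member called in that comparison, in which 3.04% of 14722 genes were called (1.58% higher and 1.46% lower). Leaving out either WT library or either 4EHP-null library ended this call, with adjusted p from 0.0556 to 0.110. Between the knockouts LTN1 footprints were lower in GIGYF1/2-null, at -0.88 ± 0.14 on the log2 scale (adjusted p = 0.00268, edgeR), a call that stood in each of the 13 alternatives.

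NEMF, the factor that recognises the obstructed large subunit and tags the nascent chain, followed LTN1 in RNA-seq, at 24.9 and 23.6 CPM in the WT libraries, 30.7 and 37.6 in the 4EHP-null libraries and 27.2 and 22.7 in the GIGYF1/2-null libraries. The 4EHP-null libraries were the highest, with replicate 2 well above replicate 1. Its log2 fold change was 0.49 ± 0.13 in 4EHP-null against WT (adjusted p = 0.0248, edgeR), 0.04 ± 0.13 in GIGYF1/2-null against WT (adjusted p = 0.889, edgeR) and -0.45 ± 0.13 between the knockouts (adjusted p = 0.0229, edgeR). The first call was lost without WT replicate 1 (adjusted p = 0.0882), WT replicate 2 (0.153) or 4EHP-null replicate 2 (0.196), and the last without 4EHP-null replicate 2 (0.176) or GIGYF1/2-null replicate 2 (0.165).

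In Ribo-seq NEMF stood at 65.3 and 59.9 CPM in the WT libraries, 95.3 and 67.7 in the 4EHP-null libraries and 48.0 and 35.0 in the GIGYF1/2-null libraries. All 3 genotypes were separate, with 4EHP-null highest and GIGYF1/2-null lowest. Only the difference between the knockouts passed the test, at a log2 fold change of -0.98 ± 0.19 (adjusted p = 0.00864, edgeR), and it did not without 4EHP-null replicate 1 (adjusted p = 0.104). Against WT, the values were 0.38 ± 0.19 in 4EHP-null (adjusted p = 0.307, edgeR) and -0.60 ± 0.19 in GIGYF1/2-null (adjusted p = 0.132, edgeR). With the replicate number as a block, NEMF footprints were called lower in GIGYF1/2-null than in WT (-0.62, adjusted p = 5.67e-04, edgeR), and the call also appeared without the filter on low counts (adjusted p = 0.00933) and without GIGYF1/2-null replicate 1 (0.0364).

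TCF25, the remaining part of the quality control complex, was called in no comparison. Its RNA-seq levels were 48.5 and 53.2 CPM in the WT libraries, 48.6 and 54.2 in the 4EHP-null libraries and 41.6 and 45.2 in the GIGYF1/2-null libraries, and both GIGYF1/2-null libraries were below the other 4. In GIGYF1/2-null against WT the log2 fold change was -0.23 ± 0.10 (adjusted p = 0.169, edgeR). Between the knockouts it was -0.24 ± 0.10 (adjusted p = 0.0956, edgeR), and -0.28 with a gene-length correction added after the data were seen, which called it (adjusted p = 0.0486). With the replicate number as a block both differences were called (adjusted p = 0.0488 against WT and 0.0239 between the knockouts, edgeR). In 4EHP-null against WT the log2 fold change was 0.01 with a 95% interval of -0.20 to 0.23. Ribo-seq gave 38.2 and 35.8 CPM in the WT libraries, 38.0 and 39.4 in the 4EHP-null libraries and 36.5 and 25.5 in the GIGYF1/2-null libraries, with the last pair the furthest apart. Without GIGYF1/2-null replicate 1, TCF25 footprints were called lower in GIGYF1/2-null than in 4EHP-null (adjusted p = 0.0292).

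TRIP4, the zinc finger subunit of the ASC-1 complex, had the smallest p of any member in RNA-seq. Its levels were 13.6 and 16.2 CPM in the WT libraries, 18.9 and 20.3 in the 4EHP-null libraries and 13.5 and 12.8 in the GIGYF1/2-null libraries, and the 3 genotypes did not overlap, with 4EHP-null highest and GIGYF1/2-null just below WT. Between the knockouts the log2 fold change was -0.57 ± 0.12 (adjusted p = 0.00444, edgeR), and this call stood in each of the 13 alternatives. The change in 4EHP-null against WT, 0.39 ± 0.12 (adjusted p = 0.0481, edgeR), was near the threshold and was lost without either WT library or either 4EHP-null library (adjusted p from 0.0519 to 0.268), with upper-quartile scaling (0.0573) and in DESeq2 (0.0673). Against WT, the value in GIGYF1/2-null was -0.18 ± 0.12 (adjusted p = 0.393, edgeR).

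TRIP4 footprints stood at 17.0 and 18.3 CPM in the WT libraries, 23.5 and 22.5 in the 4EHP-null libraries and 16.1 and 13.4 in the GIGYF1/2-null libraries, again with the 3 genotypes apart. They were lower in GIGYF1/2-null than in 4EHP-null, at -0.64 ± 0.16 on the log2 scale (adjusted p = 0.0257, edgeR). That call was lost in DESeq2 (adjusted p = 0.0687) and without 4EHP-null replicate 1 (0.140), 4EHP-null replicate 2 (0.0898) or GIGYF1/2-null replicate 2 (0.133). Against WT the values were 0.38 ± 0.16 in 4EHP-null (adjusted p = 0.227) and -0.26 ± 0.16 in GIGYF1/2-null (adjusted p = 0.430), both by edgeR.

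ASCC3, the helicase that pulls collided ribosomes apart, was called in Ribo-seq and not in RNA-seq. RNA-seq gave 80.1 and 67.4 CPM in the WT libraries, 89.7 and 92.8 in the 4EHP-null libraries and 90.6 and 68.8 in the GIGYF1/2-null libraries. The 4EHP-null libraries were above WT and overlapped GIGYF1/2-null, and no RNA-seq comparison was called (0.31 ± 0.12 in 4EHP-null against WT, adjusted p = 0.120, edgeR). With the replicate number as a block that change was called (0.31, adjusted p = 0.0103, edgeR). Ribo-seq gave 104 and 95.4 CPM in the WT libraries, 154 and 139.5 in the 4EHP-null libraries and 105 and 87.1 in the GIGYF1/2-null libraries, with both 4EHP-null libraries above all others. Footprints had a log2 fold change of -0.62 ± 0.14 between the knockouts (adjusted p = 0.0163, edgeR) and 0.56 ± 0.14 in 4EHP-null against WT (adjusted p = 0.0538, edgeR). The former was lost without 4EHP-null replicate 1 (adjusted p = 0.130) or GIGYF1/2-null replicate 2 (0.0883), and the latter was gained with the replicate block (adjusted p = 5.65e-04), upper-quartile scaling (0.0497), no filter (0.0113), DESeq2 (0.0401), those 2 genotypes alone (0.0197) and omission of either GIGYF1/2-null library (0.0193 and 0.0215). The RNA-seq change of ASCC3 in 4EHP-null against WT was likewise called without the filter (adjusted p = 0.0160), with those 2 genotypes alone (0.0313) and without either GIGYF1/2-null library (0.0299 and 0.0290), and that between the knockouts without GIGYF1/2-null replicate 1 (0.0139).

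ASCC2, the ubiquitin-binding subunit of the same complex, was called in no comparison. Its mRNA was at 82.3 and 79.6 CPM in the WT libraries, 90.2 and 88.0 in the 4EHP-null libraries and 78.3 and 80.1 in the GIGYF1/2-null libraries, a log2 fold change of 0.14 ± 0.08 in 4EHP-null against WT (adjusted p = 0.267, edgeR). Its footprints were at 49.0 and 49.4 CPM in the WT libraries, 46.5 and 47.8 in the 4EHP-null libraries and 37.2 and 39.6 in the GIGYF1/2-null libraries, with the GIGYF1/2-null libraries below all others, at -0.35 ± 0.13 against WT (adjusted p = 0.194, edgeR).

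PELO, which recognises stalled ribosomes with an empty site, had RNA-seq levels of 38.2 and 41.3 CPM in the WT libraries, 46.4 and 44.5 in the 4EHP-null libraries and 38.8 and 34.1 in the GIGYF1/2-null libraries. The 4EHP-null libraries were the highest. PELO was called only between the knockouts, where the log2 fold change was -0.32 ± 0.10 (adjusted p = 0.0411, edgeR), and 7 of 13 alternatives lost the call (adjusted p over all 13 from 0.00862 to 0.269). These were upper-quartile scaling, a fit of the 2 knockouts alone, and omission of any RNA-seq library but GIGYF1/2-null replicate 1. Against WT it was 0.19 ± 0.10 in 4EHP-null and -0.12 ± 0.10 in GIGYF1/2-null, neither called. Ribo-seq gave 41.6 and 45.0 CPM in the WT libraries, 50.2 and 50.4 in the 4EHP-null libraries and 43.5 and 38.0 in the GIGYF1/2-null libraries, with 4EHP-null highest and no comparison called (-0.31 ± 0.14 between the knockouts, adjusted p = 0.197, edgeR).

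ABCE1, the ATPase that separates the ribosomal subunits after termination and rescue, was at 332 and 302 CPM in the WT libraries, 299 and 332 in the 4EHP-null libraries and 331 and 283 in the GIGYF1/2-null libraries in RNA-seq. Every pair of genotypes overlapped. Its change on the log2 scale was -0.01 in 4EHP-null against WT (95% interval -0.22 to 0.20) and -0.05 in GIGYF1/2-null against WT (-0.26 to 0.16). Its footprints were at 298 and 358 CPM in the WT libraries, 329.7 and 331 in the 4EHP-null libraries and 294 and 338 in the GIGYF1/2-null libraries and overlapped likewise. No comparison of ABCE1 was called, which does not show that its levels were equal.

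EDF1, the collision sensor upstream of GIGYF2 and 4EHP, had its lowest levels in 4EHP-null cells. Its RNA-seq levels were 152 and 167 CPM in the WT libraries, 135 and 134 in the 4EHP-null libraries and 151 and 169.8 in the GIGYF1/2-null libraries. Both 4EHP-null libraries were below the other 4. EDF1 differed from WT by -0.25 ± 0.08 on the log2 scale (adjusted p = 0.0744, edgeR). With the replicate number as a block this difference was called (adjusted p = 0.0150, edgeR). That difference was called without the filter on low counts (adjusted p = 0.0387), with those 2 genotypes alone (0.0269) and without either GIGYF1/2-null library (0.0312 and 0.0309). EDF1 was called higher in GIGYF1/2-null than in 4EHP-null at 0.25 ± 0.08 (adjusted p = 0.0443, edgeR). The call between the knockouts stood in 6 of 13 alternatives: it was lost with a gene-length correction (0.12, adjusted p = 0.259), in a fit of the 2 knockouts alone (0.0546) and on omission of any RNA-seq library but GIGYF1/2-null replicate 1 (adjusted p over all 13 from 0.00833 to 0.259).

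EDF1 footprints were at 114 and 89.4 CPM in the WT libraries, 86.5 and 65.7 in the 4EHP-null libraries and 128 and 93.4 in the GIGYF1/2-null libraries. The 4EHP-null libraries were again the lowest. Their log2 fold change was -0.42 ± 0.19 in 4EHP-null against WT (adjusted p = 0.262, edgeR) and 0.54 ± 0.19 between the knockouts (adjusted p = 0.0961, edgeR), neither called. With the replicate number as a block both were called, at adjusted p = 0.0135 and 5.28e-04 (edgeR). The members called in 4EHP-null against WT then became 3 (EDF1, LTN1 and ASCC3). Over the alternatives that kept every library, 323 to 1830 of all genes were called there, against 448 in the main fit. The share of all genes called under the block was not set beside the 3, so their number says nothing particular about the members. The difference between the knockouts was also called without the filter on low counts (adjusted p = 0.00964) and without GIGYF1/2-null replicate 2 (0.0264).

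GTPBP1, the elongation factor-like GTPase, had RNA-seq levels of 110.0 and 126 CPM in the WT libraries, 126 and 119.9 in the 4EHP-null libraries and 113 and 110.3 in the GIGYF1/2-null libraries. Ribo-seq gave 60.3 and 66.2 CPM in the WT libraries, 63.6 and 68.7 in the 4EHP-null libraries and 66.0 and 53.6 in the GIGYF1/2-null libraries. The genotypes overlapped, except that both GIGYF1/2-null RNA-seq libraries were below both of 4EHP-null. Its log2 fold change in RNA-seq was 0.06 in 4EHP-null against WT (95% interval -0.12 to 0.25) and -0.08 in GIGYF1/2-null against WT (-0.26 to 0.10). No comparison of GTPBP1 was called.

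**Figure D2:**
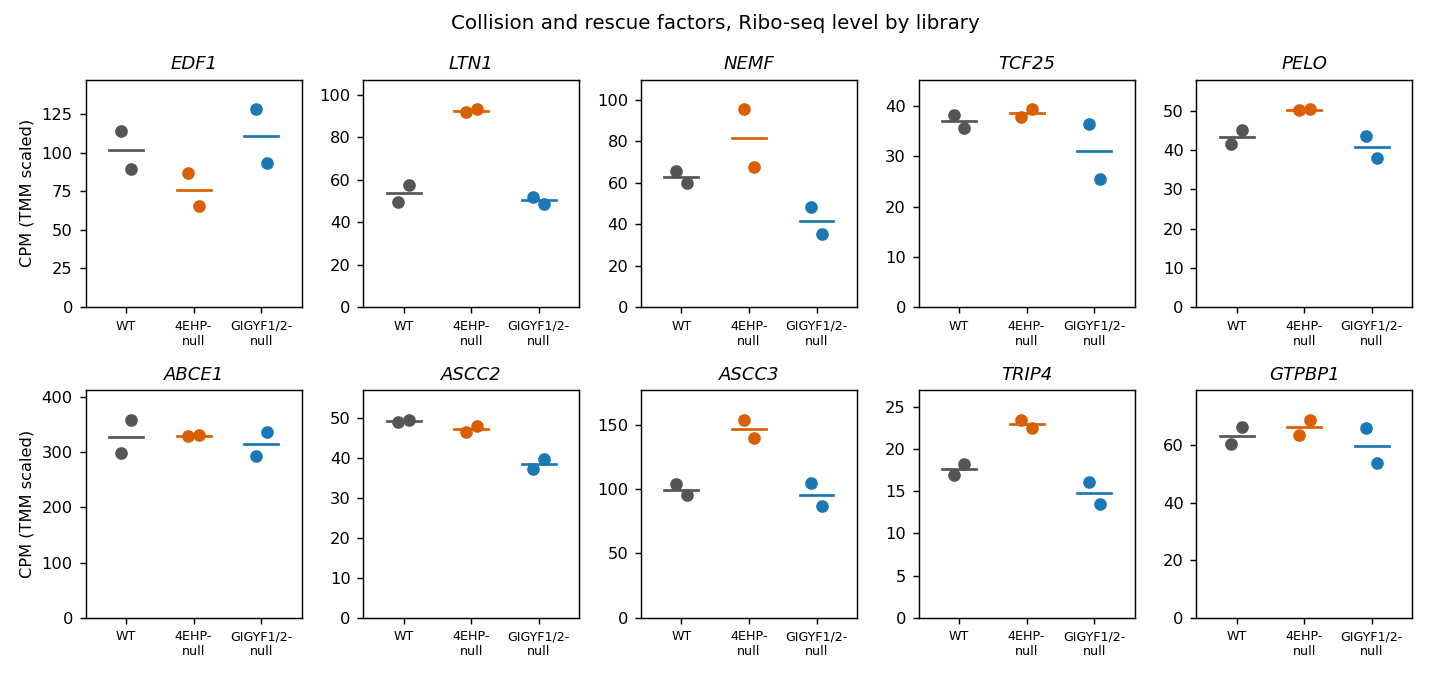
Ribo-seq level of each of the 10 genes in CPM (vertical axis, from 0 and scaled separately for each gene) in the 2 libraries of each genotype (points) with their mean (line). The 4EHP-null libraries of LTN1 and ASCC3 lie above all others, the 3 genotypes of NEMF and TRIP4 are apart, and those of ABCE1 and GTPBP1 overlap.

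Across the group, footprints gave fewer calls than mRNA, as they did over all genes tested. In 4EHP-null against WT 3.04% of all genes were called in Ribo-seq and 13.1% in RNA-seq. The shares were 2.09% and 11.9% in GIGYF1/2-null against WT, and 10.8% and 24.4% between the knockouts. In Ribo-seq 1 of 10 members was called in 4EHP-null against WT, with 4 at an unadjusted p under 0.05 (19.1% of all genes). In GIGYF1/2-null against WT 0 were called by edgeR or DESeq2, where 2.09% of all genes were, with 2 (NEMF and ASCC2) at an unadjusted p under 0.05 (17.5% of all genes). Between the knockouts 4 were called, LTN1, NEMF, ASCC3 and TRIP4, all lower in GIGYF1/2-null, where 10.8% of all genes were called, 3.98% higher and 6.80% lower. At an unadjusted p under 0.05, 5 members differed, against 25.8% of all genes. The median log2 fold change of the 10 in that comparison was -0.32, against 0.03 over all genes tested, and 9 of 10 were below 0, EDF1 being the exception.

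**Figure D3:**
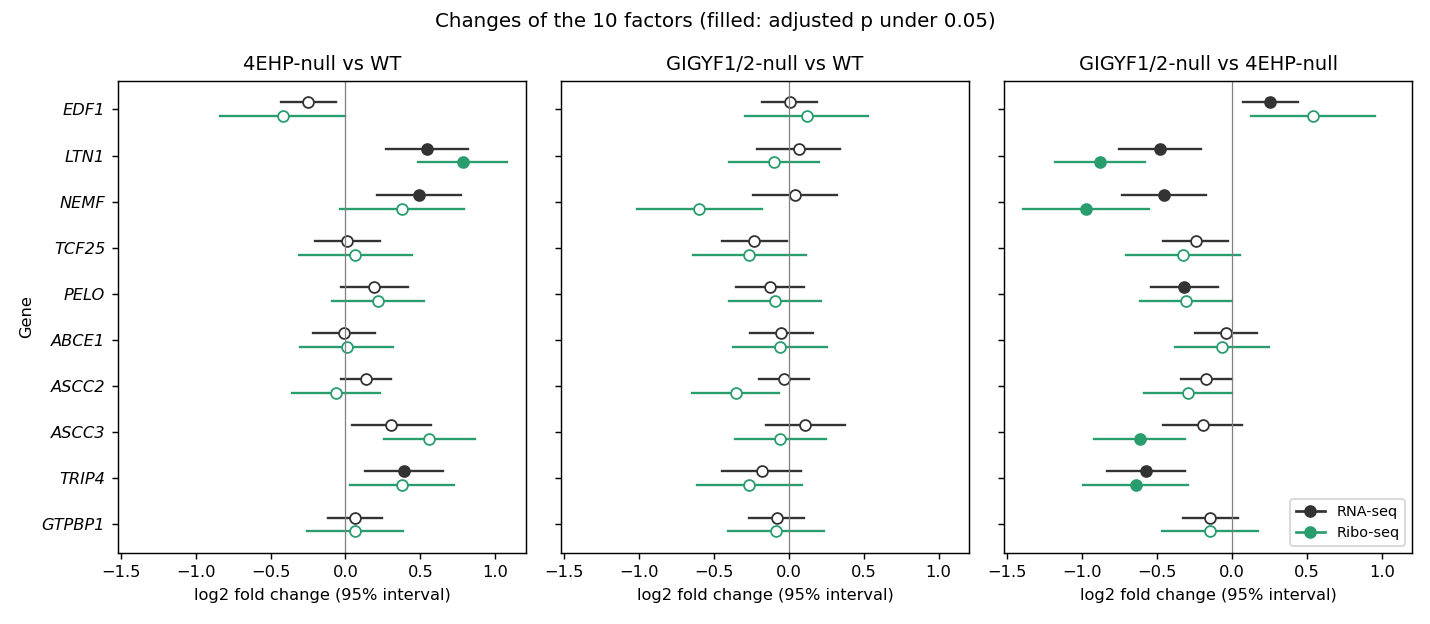
Log2 fold change of each of the 10 genes in RNA-seq and Ribo-seq for the 3 comparisons of genotypes, with 95% intervals from the edgeR fits and filled points where the gene was called. LTN1, NEMF and TRIP4 lie to the right of 0 in 4EHP-null against WT and to the left in GIGYF1/2-null against 4EHP-null, while EDF1 lies on the opposite sides.

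The ratio of Ribo-seq CPM to RNA-seq CPM is a footprint density relative to mRNA reads. Gene length cancels, but each assay is scaled to its own library size, so the ratio is not a number of ribosomes on a molecule. Untranslated regions count towards mRNA reads more than towards footprints, so genes with long ones read low here as well. The ratio spread more widely among the members than between genotypes. In WT, NEMF had the highest ratio, 2.58 (library pairings from 2.40 to 2.77), at the 93.4 percentile of all genes tested, whose median was 0.715. ASCC3 (1.35), LTN1 (1.32), TRIP4 (1.18), PELO (1.09) and ABCE1 (1.03) also lay above that median. TCF25 was at 0.727, and EDF1 (0.637), ASCC2 (0.608) and GTPBP1 (0.537) were below it. Within the ASC-1 complex the ratio was thus lower for ASCC2 than for ASCC3 and TRIP4.

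The change of this ratio (translational efficiency, TE) was tested as the interaction of assay and genotype in 1 model of 12 libraries and 13257 genes. No member was called by edgeR or DESeq2 in any of the 3 comparisons, beside 0.0981% of all genes in 4EHP-null against WT, 0.0453% in GIGYF1/2-null against WT and 0.181% between the knockouts. The members with an edgeR p under 0.05 before adjustment numbered 0, 2 and 3, where 7.19%, 4.29% and 6.25% of all genes had one. For NEMF the ratio was 1.67 (library pairings from 1.29 to 2.12) in GIGYF1/2-null, and its TE change against WT was -0.63 ± 0.24 on the log2 scale (95% interval -1.15 to -0.11, adjusted p = 1.0, edgeR). For ASCC2 the ratio was 0.485 (library pairings from 0.465 to 0.506) and the change -0.31 ± 0.13 (95% interval -0.59 to -0.03, adjusted p = 1.0, edgeR). In 4EHP-null against WT the TE change of LTN1 was 0.26 ± 0.18 with an interval of -0.13 to 0.65, and that of EDF1 -0.15 ± 0.22 with -0.62 to 0.33. Between the knockouts the 3 were LTN1 (-0.41 ± 0.18), NEMF (-0.54 ± 0.24) and ASCC3 (-0.43 ± 0.19), with adjusted p of 0.774, 0.774 and 0.774. None of these passed the adjustment over all genes, which does not show that the ratios were alike.

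**Figure D4:**
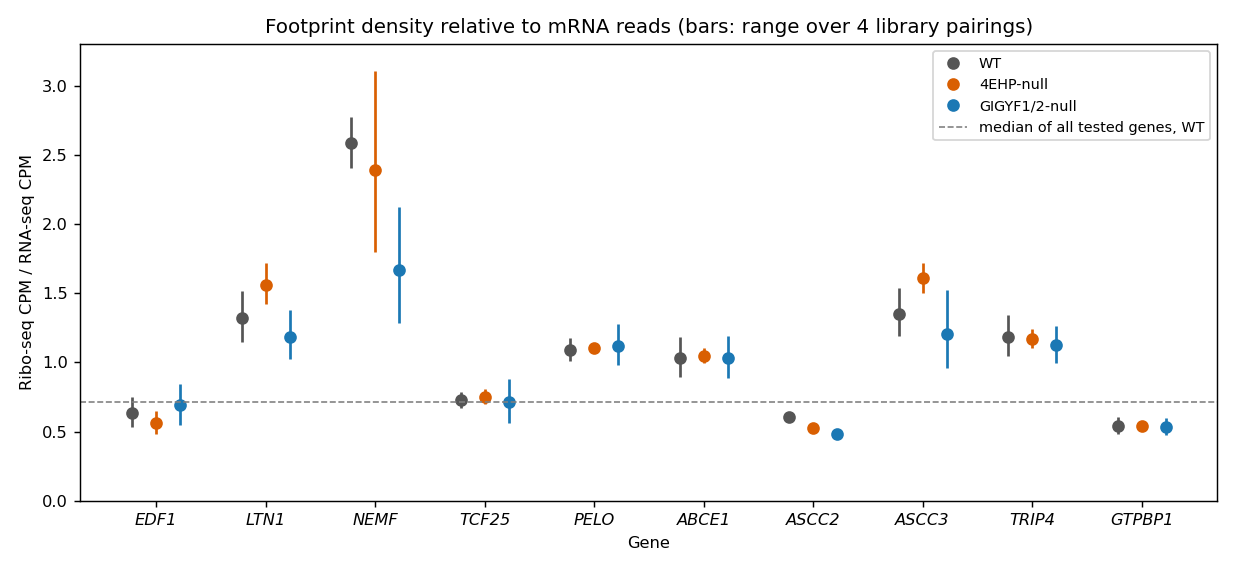
Footprint density relative to mRNA reads (Ribo-seq CPM divided by RNA-seq CPM, vertical axis) of the 10 genes in each genotype, as the ratio of means with bars from the lowest to the highest of the 4 library pairings. NEMF is the highest in all 3 genotypes, from 2.58 in WT to 1.67 in GIGYF1/2-null.

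The other genes of the pathway were taken from a list of 34 (33 tested in RNA-seq, 34 in Ribo-seq), chosen with earlier results of these data known. In RNA-seq of 4EHP-null against WT, 3 were called higher and 4 lower, beside 6.47% and 6.63% of all genes tested, with a median log2 fold change of 0.07 (all genes -0.003). The higher ones were MAPK8, a stress kinase (1.36 ± 0.10), N4BP2 (0.48 ± 0.11) and SKIV2L, the helicase of the Ski complex that feeds mRNA to the exosome (0.37 ± 0.09). The lower ones were NPLOC4, an adaptor of the VCP ATPase (-0.50 ± 0.08), the small-subunit proteins RPS20 (-0.50 ± 0.09) and RPS3 (-0.35 ± 0.10), both of which are ubiquitinated upon collisions, and ASCC1 (-0.32 ± 0.09), the remaining ASC-1 subunit. N4BP2 and RPS20 were not called without WT replicate 2 (adjusted p = 0.120 and 0.0575), N4BP2 also not without 4EHP-null replicate 2 (0.124), and SKIV2L, RPS3 and ASCC1 were each lost on omission of any 1 of the 4 WT and 4EHP-null libraries (adjusted p over the 13 alternatives from 0.00331 to 0.166, 1.78e-04 to 0.280 and 0.00795 to 0.194). Reads of RPS20 and RPS3 can be shared with ribosomal protein pseudogenes, so their values are less certain. The calls of MAPK8 and NPLOC4 stood in each of the 13 alternatives.

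In GIGYF1/2-null against WT 11.9% of all genes were called, with 813 of 15637 higher and 1055 lower. None of the listed genes was called higher and 4 were lower, a share close to that of both directions together, with a median of -0.01 (all genes 0.01). These were VCP, the ATPase that extracts ubiquitinated chains (-0.63 ± 0.12), KLHDC10, a ligase component that recognises tailed chains (-0.50 ± 0.08), TTC37, the scaffold of the Ski complex (-0.35 ± 0.09), and HBS1L, the GTPase partner of PELO (-0.32 ± 0.08). VCP mRNA was at 367 and 339.7 CPM in the WT libraries, 429.7 and 416 in the 4EHP-null libraries and 264 and 192 in the GIGYF1/2-null libraries, with both GIGYF1/2-null libraries below all others. TTC37 mRNA was at 90.1 and 82.1 CPM in the WT libraries, 99.6 and 110.1 in the 4EHP-null libraries and 71.7 and 63.2 in the GIGYF1/2-null libraries, and its GIGYF1/2-null libraries were the lowest. Without WT replicate 1 the calls of VCP, TTC37 and HBS1L were lost (adjusted p = 0.0602, 0.217 and 0.127), without WT replicate 2 those of TTC37 and HBS1L (0.0588 and 0.0760), and without GIGYF1/2-null replicate 2 that of TTC37 (0.143). That of KLHDC10 stood in each of the 13.

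Between the knockouts 1 listed gene was higher in GIGYF1/2-null (NPLOC4, 0.49 ± 0.08) and 7 were lower in RNA-seq, namely MAPK8 (-1.32 ± 0.10), VCP (-0.89 ± 0.12), TTC37 (-0.64 ± 0.09), KLHDC10 (-0.57 ± 0.08), ANKZF1 (-0.41 ± 0.12), N4BP2 (-0.35 ± 0.11) and HBS1L (-0.33 ± 0.08). These 8 of 33 are a share close to the 24.4% of all genes called. The calls of N4BP2 and ANKZF1 were lost without either 4EHP-null library or GIGYF1/2-null replicate 2, and that of N4BP2 also with upper-quartile scaling, DESeq2 and the gene-length correction (adjusted p over the 13 alternatives from 0.0156 to 0.210 and from 0.00886 to 0.115). HBS1L was not called without 4EHP-null replicate 2 or with the gene-length correction (8.62e-04 to 0.107). In Ribo-seq, MAPK8 was higher (1.40 ± 0.21) and NPLOC4 lower (-0.96 ± 0.13) in 4EHP-null against WT, and TTC37 was lower in GIGYF1/2-null against WT (-0.66 ± 0.14), a call that ended on omission of any 1 library, with upper-quartile scaling and in a fit of those 2 genotypes alone (adjusted p over the 13 from 9.31e-05 to 0.273). Between the knockouts NPLOC4 was higher in GIGYF1/2-null (0.65 ± 0.13) and VCP (-1.05 ± 0.19), MAPK8 (-1.29 ± 0.20), TTC37 (-1.0 ± 0.14) and GSPT2 (-0.92 ± 0.24) were lower. The call of NPLOC4 was lost without 4EHP-null replicate 1 (adjusted p = 0.100), and that of GSPT2 without either 4EHP-null library, without GIGYF1/2-null replicate 2 and in DESeq2 (8.50e-04 to 0.184). GSPT2 was listed with 0 RNA-seq reads in all 6 libraries, while its Ribo-seq counts were 53 to 83. The footprints counted for it thus have no matching mRNA reads, and whether they came from GSPT2 mRNA was not tested. With the replicate number as a block, VCP (adjusted p = 3.75e-06), KLHDC10 (0.0273) and ASCC1 (0.0478) were also called lower in GIGYF1/2-null than in WT. VCP was called there in DESeq2 (0.00582), without the filter (4.47e-05) and without GIGYF1/2-null replicate 1 (0.00325) as well. Between the knockouts the block also called ANKZF1 (adjusted p = 0.00165), ASCC1 (0.0486), HBS1L (0.00185) and KLHDC10 (0.00524) lower in Ribo-seq. No listed gene was called in TE by edgeR or by DESeq2.

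Each named gene was also set beside the 10 tested genes on either side of it on its chromosome. For MAPK8 the median log2 fold change of these 20 neighbours in 4EHP-null against WT was 1.42, and 15 of them were called higher. For NPLOC4 it was -0.40, with 11 called lower. In GIGYF1/2-null against WT the neighbours of KLHDC10 had a median of -0.53, with 10 called lower, and those of HBS1L -0.34, with 7 called lower. For ASCC1 in 4EHP-null against WT it was -0.28, with 9 called lower. These 5 genes thus changed in the direction of their neighbourhood and by a similar amount, and the part of chromosome position in these calls was not tested. The neighbours of VCP (0.19) and TTC37 (0.10) did not fall with them. Among the 10 members, the neighbours of LTN1 (-0.18), NEMF (-0.10) and TRIP4 (-0.03) in 4EHP-null against WT lay near or below 0, opposite to the members' own changes. The neighbours of EDF1 were at -0.12 there and at 0.16 between the knockouts, in the direction of EDF1 itself.

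Fold changes moved with gene length. In RNA-seq of 4EHP-null against WT the median log2 fold change ran from -0.14 for genes under 1000 bases to 0.10 for those over 8000, and between the knockouts from 0.16 to -0.11. EDF1 is the shortest member (1083 bases), TRIP4 has 2129, NEMF 4373, LTN1 7759 and ASCC3, the longest, 11384. With a gene-length correction the 4EHP-null changes of LTN1, NEMF and TRIP4 were 0.46, 0.46 and 0.43 and remained called. In the reference annotation NEMF overlaps KLHDC2, PELO lies within ITGA1, ABCE1 overlaps ANAPC10 and GTPBP1 overlaps SUN2. The assignment of reads in shared sequence is not stated, which leaves the levels of these 4 members less certain. In RNA-seq ITGA1 was at 5.25 and 4.71 CPM in the WT libraries, 6.45 and 8.65 in the 4EHP-null libraries and 4.43 and 5.26 in the GIGYF1/2-null libraries. It was thus highest in 4EHP-null, as PELO was, and it reached 12.9 CPM in Ribo-seq. Whether reads of ITGA1 entered the PELO counts was not tested.

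The authors' deposited tables, which compare each knockout with WT, gave similar values for the members. In the RNA-seq table for 4EHP-null the authors' deposited table listed log2 fold changes of 0.54 for LTN1 (adjusted p = 0.00141), 0.49 for NEMF (0.00574), 0.39 for TRIP4 (0.0229) and -0.25 for EDF1 (0.0394). The last of these was under 0.05 in the authors' deposited table and not in the present fit. In Ribo-seq for 4EHP-null the authors' deposited table held LTN1 at 0.84 (adjusted p = 3.40e-06) and ASCC3 at 0.62 (0.00663). For GIGYF1/2-null no member was under 0.05 in the authors' deposited table of either assay, with NEMF footprints at -0.56 (0.0791).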

How the data were processed

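The 10 members and the lists of other genes were chosen with earlier results of these data known. The deposited count tables of each assay list whole-number reads by gene symbol, which the authors had not normalized. Per the submitters' processing notes, Bowtie2, TopHat2, edgeR and build hg19 were used, with no version. The counting tool, the strand setting and the annotation were not given in the sources used here. The deposited comparison tables of the authors hold log2 fold changes with raw and adjusted p-values, per the file headers.

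Counts were analysed in R 4.3.3 with edgeR 4.0.16, limma 3.58.1 and DESeq2 1.42.0. After filterByExpr, 15637 genes (RNA-seq) and 14722 (Ribo-seq) of 27011 were tested, all 10 members among them. Libraries were TMM-scaled and a two-sided quasi-likelihood F-test used all 6 libraries of each assay, so that genotypes shared 1 estimate of spread. The TE test used genes kept in both assays. In total 9 comparisons were fitted. Common biological variation was 0.0862 (RNA-seq), 0.119 (Ribo-seq) and 0.0963 (TE). The edgeR script was tested on simulated data. Named genes were all members, the targeted genes, and listed pathway genes called at least once.

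Replicate numbers in the labels recur in each genotype. Deviations of same-numbered libraries correlated across genes at 0.149, 0.314 and 0.224 in Ribo-seq, all above 0.1, and at 0.0701, 0.180 and 0.153 in RNA-seq. By this mark the numbers pair the Ribo-seq libraries, as read from the data, and not all RNA-seq libraries. The RNA-seq values of 0.180 and 0.153 were nonetheless above the lowest Ribo-seq value of 0.149. In each genotype replicate 2 held more Ribo-seq reads than replicate 1, and the part of depth in these correlations was not tested. All main values come from fits without the block, and blocked values are given where they change a call, in RNA-seq for members only. Alternatives were other scalings (RLE, upper quartile), no filter, DESeq2, the compared genotypes alone, the replicate block and omission of each library, with a gene-length offset added after the data were seen. Reference symbols matched 94.7% of genes, and neighbour order came from RefSeq on GRCh38.p14, without coordinates.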

Additional observations from a re-analysis of the deposited data

Results flagged for a closer look

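A total of 9 results were flagged because the 2 knockouts differed in a direct test between them (edgeR's quasi-likelihood test, adjusted over all genes tested). These were 5 members in RNA-seq, where 24.4% of all genes were called, and 4 in Ribo-seq, where 10.8% were. In RNA-seq the log2 fold changes of GIGYF1/2-null against 4EHP-null were 0.25 for EDF1, -0.48 for LTN1, -0.45 for NEMF, -0.32 for PELO and -0.57 for TRIP4. In Ribo-seq they were -0.88 for LTN1, -0.98 for NEMF, -0.62 for ASCC3 and -0.64 for TRIP4. LTN1, NEMF and TRIP4 differed in both assays. The labels do not say whether the RNA-seq and Ribo-seq libraries of a genotype came from the same cultures. In each assay all GIGYF1/2-null libraries of LTN1, NEMF and TRIP4 lay below all 4EHP-null libraries. The 3 genes were picked by this same comparison, so that placement adds no support to it. Of all genes tested, 4793 of 15637 in RNA-seq and 3789 of 14722 in Ribo-seq were placed that way. Each genotype had 2 libraries, too few for an outlier test.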

How the results depend on the processing

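Across 1350 recomputed values of single members, 1280 stayed on their side of the threshold, 41 calls were lost, 29 were gained and 0 reversed. Members called in RNA-seq of 4EHP-null against WT numbered 3, and 5 without the filter, 5 with the compared genotypes alone and 5 with the replicate block. Upper-quartile scaling and DESeq2 each lost TRIP4 from the 3 and added no member. Leaving out 1 library gave 0 to 5. Between the knockouts the 5 became 3 with the compared genotypes alone and 1 to 6 without 1 library. The replicate block called 1 member (TCF25) in RNA-seq of GIGYF1/2-null against WT. Of the 3 pairs of genotypes, 1 correlated below 0.1 in RNA-seq, so the pairing has partial support there.

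In Ribo-seq of 4EHP-null against WT the 1 member became 2 with upper-quartile scaling, 2 without the filter, 2 in DESeq2, 2 with the compared genotypes alone, 3 with the replicate block and 0 to 2 without 1 library. In GIGYF1/2-null against WT the 0 became 1 without the filter, 1 with the replicate block and 0 to 1 without 1 library. Between the knockouts EDF1 was added to the 4 by the block and by omitting the filter, and DESeq2 lost TRIP4. Omission of single libraries moved that count in both directions. TE called no member under any of the 19 alternatives.

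Counts over all genes moved as well. In RNA-seq they were 2048 (810 to 3571 over the alternatives), 1868 (783 to 3224) and 3820 (2238 to 5362) for 4EHP-null against WT, GIGYF1/2-null against WT and between the knockouts. In Ribo-seq they were 448 (118 to 1830), 307 (59 to 1747) and 1587 (431 to 3291), and in TE 13 (5 to 88), 6 (1 to 30) and 24 (7 to 114). The cause of these shifts was not tested. With 2 libraries a genotype, omission of 1 leaves a lone library assumed to vary like the others.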

Other observations

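Over the 12 RNA-seq and Ribo-seq libraries, each centred within its assay, LTN1 and ASCC3 varied together (Pearson r 0.92), as did TRIP4 and PELO (0.95), while EDF1 and LTN1 varied in opposite directions (-0.79). These are descriptions over libraries that share genotypes and depth. Among 10491 other genes, those most like TRIP4 were PCCB (r 0.96), SFSWAP (0.96) and TMUB1 (0.96), and those most like LTN1 were SLC4A7 (0.97), ATP6V1A (0.97) and USP32 (0.97).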
